A study of Mus musculus with 4 samples.

Results

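The respiratory chain genes described here are those encoded in the nucleus, chosen by name from the gene list of the libraries. Every symbol beginning Ndufa, Ndufb, Ndufc, Ndufs, Ndufv, Uqcr, Cox4, Cox5, Cox6, Cox7, Cox8 or Atp5 was taken, except 1 pseudogene row, which left 89 of 32285 genes. By role they comprised 36 subunits of complex I, 8 assembly factors of complex I (the Ndufaf genes), 8 subunits of complex III, 20 of complex IV and 17 of complex V. The prefixes leave out succinate dehydrogenase (complex II) and the 13 protein genes of mitochondrial DNA, which were followed as separate lists. They also leave out Cyc1, the cytochrome c1 subunit of complex III, which was followed together with cytochrome c (Cycs). No expression value entered the choice of members. They lie on 19 chromosomes, with 3 of them on X.

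The respiratory chain sits in the inner mitochondrial membrane. Complex I takes electrons from NADH, complex III passes them to cytochrome c, and complex IV (cytochrome c oxidase) hands them to oxygen, while complex V uses the proton gradient built on the way to make ATP. Most subunits are present in nearly every cell, but complex IV has pairs of isoforms for several subunits, one of them used widely and the other in particular tissues such as muscle, lung or testis. In bone marrow, chondrocytes and many stromal cells are known to rely heavily on glycolysis.

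Single-cell RNA was measured in sorted femoral bone marrow cells of Rag2-/-gammac-/- C57BL/6 mice, an immunodeficient host without lymphocytes of its own, and the 4 libraries made 4 groups of 1. Graft_D40 and Graft_D19 came from mice injected with DOHH2, an established human B lymphoma line, and taken at day 40 and day 19. Sham_D40 came from mice injected with PBS and taken at day 40, and Ctrl from mice that were not grafted. The labels give neither the age of the mice nor how many were pooled in a library. The sort kept Cd45 and Ter119 negative, Cd31 negative, Cd51 and Cd200 positive stroma together with Cd31 and Sca1 positive endothelium.

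The libraries Graft_D40, Graft_D19, Sham_D40 and Ctrl kept 4920, 4902, 4570 and 4151 cells after filtering, with 72204599, 63214301, 51744386 and 18533482 gene UMIs per library before filtering. Ctrl stood apart as the shallowest library, with a median of 3640 UMIs per mesenchymal cell against 8561 to 11048 in the other 3. Cells were sorted into classes by summed marker genes, none of which is a respiratory chain gene. In mural-like cells all 11 pericyte and smooth muscle markers were above 5 CPM in each library and together made up 23212 to 24863 CPM, while endothelial markers summed to 595 to 1795 CPM there. All 14 chondrocyte markers were present in chondrocyte-like cells (42494 to 70459 CPM), all 12 LepR stroma markers in LepR-like cells and all 12 osteolineage markers in osteolineage-like cells. The sorting used most of these same genes, so the sums describe the classes and do not test them. These classes are ranges of a marker score and not proven cell types: 0 mural-like cells, 6 to 18 chondrocyte-like cells and 6 to 40 LepR-like cells per library lay within 20% of their cut. Of osteolineage-like cells 11 of 174, 18 of 155, 14 of 126 and 9 of 102 did so in Graft_D40, Graft_D19, Sham_D40 and Ctrl, and of arterial-like cells 35 of 290, 10 of 114, 18 of 183 and 13 of 154. Stromal cells that met no class rule, 604, 312, 270 and 160 of them, are called other stroma. They reached no marker cut, or reached a cut without that marker sum standing far enough above the others.

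CPM here is a gene's UMIs per 1000000 UMIs of the class in that library. Transcripts of the 89 genes took the largest share of UMIs in mural-like cells, in every library. For Graft_D40, Graft_D19, Sham_D40 and Ctrl the share was 2.27%, 2.25%, 2.18% and 4.16%. In LepR-like stroma, gated on the leptin receptor gene and other LepR stroma markers, it was 1.38%, 1.45%, 1.37% and 2.28% in the same order of libraries. Counting intervals were narrow, at 2.24% to 2.29% for mural-like cells of Graft_D40 and 4.07% to 4.26% for those of Ctrl.

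The other classes lay close together within a library, between 1.37% and 1.87% in Graft_D40 and between 2.12% and 2.55% in Ctrl, with mural-like cells above that band. Chondrocyte-like cells held 1.56%, 1.72%, 1.53% and 2.32%, and sinusoidal-like endothelium held 1.53%, 1.63%, 1.44% and 2.40%. With each cell thinned to 2000 UMIs, the median mural-like cell still gave 2.15%, 1.95%, 2.13% and 4.08%, against 1.30%, 1.35%, 1.30% and 2.25% in LepR-like cells. Ctrl was above the other 3 libraries in each of the 9 classes.

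**Figure D1:**
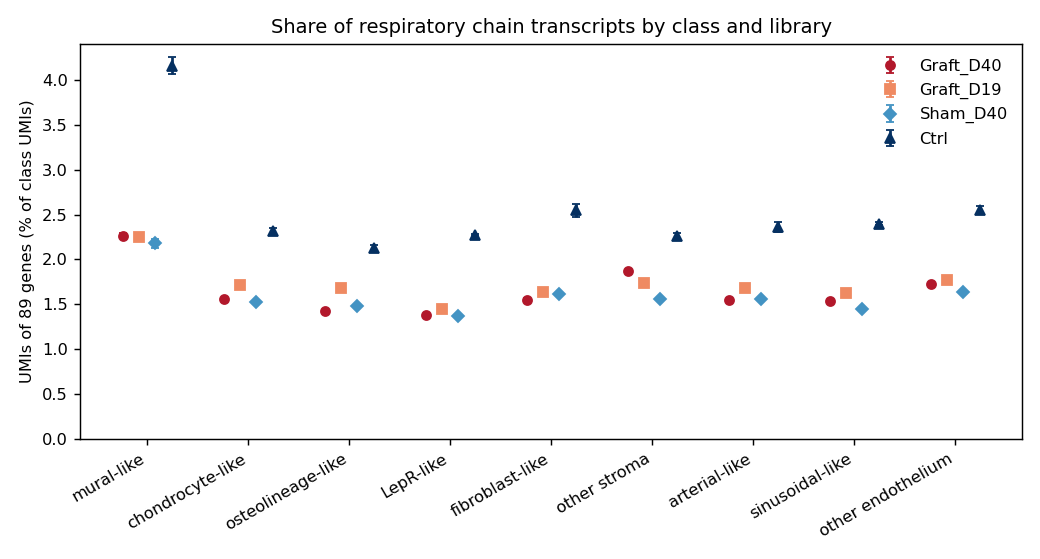
UMIs of the 89 respiratory chain genes as a percentage of all UMIs of a class (vertical axis), by marker-gated class (horizontal axis) and library (symbols), with 95% Poisson intervals that cover counting error only and are mostly smaller than the symbols. Mural-like cells are highest in every library, from 2.18% in Sham_D40 to 4.16% in Ctrl, and Ctrl is above the other 3 libraries in every class.

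Members were abundant and mostly even across classes. Averaged over the 4 libraries, 84 of the 89 reached a mean of 5 CPM over the 9 classes, and the log2 range between a member's highest and lowest class had a median of 0.96. Only 3 of these 84 spanned more than 2 log2 units, and 76 spanned less than 1.5. The highest mean levels belonged to small subunits of complexes IV and V, with Cox8a at 677 CPM, Cox4i1 at 666, Cox6c at 665, Atp5e at 650 and Cox7c at 584. Levels of different genes are not corrected for length, because only 3′ ends were counted.

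The highest class was the mural-like class for 64 of the 84 members. The lowest was LepR-like stroma for 20 and osteolineage-like cells for another 20. Among the most even members were Ndufb11, an accessory subunit of complex I (log2 range 0.44), and Atp5f1, a subunit of the stalk of complex V (0.52). The 3 widest ranges all belonged to complex IV isoforms, namely Ndufa4l2 (7.88), Cox4i2 (7.37) and Cox6b2 (4.18). The muscle and testis isoforms Cox6a2, Cox7b2, Cox8b and Cox8c were at or near 0, with no class mean above 0.353, 0.065, 2.04 and 0.757 CPM.

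Promoters are shown for 5 members that stood out in the class contrasts below, namely a pair of widespread subunits that were higher in mural-like or chondrocyte-like cells and 3 isoforms of complex IV. Each is the 250 bases before the RefSeq transcription start on GRCm38.p6, read 5′ to 3′ on the gene's own strand. Capitals mark matches to GCGCA followed by any 1 base and then GCGC (bound by NRF1, a factor known to act on many respiratory genes), to CCGGAAG or its reverse complement CTTCCGG (bound by ETS factors such as GABP) and to AAGATGGC (bound by YY1), each searched on both strands. Cox6a1, on the minus strand at chr5:115348959-115349208, encodes the widespread isoform of subunit 6a of complex IV. Atp5g2, on the minus strand at chr15:102671048-102671297, encodes a copy of the c-ring subunit of complex V. Ndufa4 (minus strand, chr6:11907451-11907700), Cox7a1 (plus strand, chr7:30183921-30184170) and Cox6b2 (minus strand, chr7:4753095-4753344) are described with the isoforms.
Cox6a1: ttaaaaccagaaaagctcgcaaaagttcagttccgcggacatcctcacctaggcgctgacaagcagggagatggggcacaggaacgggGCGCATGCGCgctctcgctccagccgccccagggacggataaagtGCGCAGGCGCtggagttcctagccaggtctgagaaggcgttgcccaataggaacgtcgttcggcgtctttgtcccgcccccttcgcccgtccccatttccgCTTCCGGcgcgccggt
Atp5g2: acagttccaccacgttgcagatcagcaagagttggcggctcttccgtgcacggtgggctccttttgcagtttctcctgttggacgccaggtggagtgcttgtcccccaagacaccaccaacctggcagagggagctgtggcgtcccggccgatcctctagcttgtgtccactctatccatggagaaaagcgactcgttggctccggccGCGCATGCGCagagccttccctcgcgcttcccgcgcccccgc
Ndufa4: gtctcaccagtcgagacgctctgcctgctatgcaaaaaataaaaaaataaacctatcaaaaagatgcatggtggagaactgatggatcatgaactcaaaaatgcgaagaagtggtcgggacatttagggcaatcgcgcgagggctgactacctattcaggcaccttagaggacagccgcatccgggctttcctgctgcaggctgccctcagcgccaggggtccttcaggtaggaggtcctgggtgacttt
Cox7a1: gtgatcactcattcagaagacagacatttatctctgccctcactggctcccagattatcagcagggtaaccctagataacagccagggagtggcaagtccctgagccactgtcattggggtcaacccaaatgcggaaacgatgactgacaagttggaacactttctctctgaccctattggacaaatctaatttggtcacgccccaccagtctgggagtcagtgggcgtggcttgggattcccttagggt
Cox6b2: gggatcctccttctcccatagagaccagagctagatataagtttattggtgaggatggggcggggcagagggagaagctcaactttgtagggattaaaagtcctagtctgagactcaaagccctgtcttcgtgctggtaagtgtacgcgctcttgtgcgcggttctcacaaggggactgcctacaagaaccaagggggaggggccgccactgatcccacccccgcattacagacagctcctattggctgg

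Cox6a1 holds 2 matches to the loose NRF1 motif, of which 1 is the full palindrome (T as the free base), and 1 ETS match, while Atp5g2 holds 1 palindrome. The 3 isoform promoters hold none of the 3 motifs. RefSeq promoters were found for 72 of the 89 members, which have 77 promoters of 300 bases (250 before the start and 50 after it). The loose NRF1 motif stood in 18 of these 77 (23.4%), against 4.6% of all 32851 promoters of that length, and the palindrome, which is contained in it, in 9.09% against 0.971%. CCGGAAG was found in 22.1% against 8.86%, and AAGATGGC in 10 of the 77 against 2.75% of all promoters. ACGTG, the core of the hypoxia response element, was nearly as frequent in members as in all promoters, at 22.1% against 19.6%. GGGCGG, bound by SP1, was in 42.9% of member promoters against 35.7% of all, CCAAT in 42.9% against 37.4% and TATAAA in 11.7% against 13.6%. Member promoters had a median GC content of 57.3%, against 52.7% for all promoters, and the part of base composition in these shares was not tested. A match of letters is a description and not a binding site. Cox4i1, Cox4i2 and Ndufa4l2 have no sequence shown.

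Class contrasts used the 4 libraries as replicates, because each library holds all classes. UMI sums per class and library were fitted with edgeR's quasi-likelihood test with library as a block, and p-values were adjusted by Benjamini-Hochberg over all genes tested. A gene changed where its adjusted p was under 0.05. Nothing in the sources used here says whether a library is 1 animal or a pool, so these p-values measure the spread between 4 libraries that also differ in treatment. Of the 89 members, 85 passed the filter on low counts.

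Mural-like cells, gated on pericyte and smooth muscle markers, carried higher levels of members of all 4 complexes than LepR-like stroma. In edgeR's quasi-likelihood test 74 of the 85 members were higher and 2 were lower, where 18.0% of all genes tested were higher and 19.7% lower. The median log2 fold change of the members was 0.64, against -0.10 for all genes. The contrast was added after the levels by class had been seen, and is therefore a description of these libraries. On plain class totals 73 were higher and 2 lower, with 17.8% and 19.5% of all genes called. It rests on 128, 49, 43 and 58 mural-like cells in Graft_D40, Graft_D19, Sham_D40 and Ctrl.

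Of complex I subunits, 32 of 36 were higher in mural-like cells and 0 lower (median log2 0.56). Ndufv1, the subunit that takes up NADH, had 94.1, 84.7, 67.2 and 214 CPM in mural-like cells of Graft_D40, Graft_D19, Sham_D40 and Ctrl, against 55.0, 57.1, 55.8 and 67.3 CPM in LepR-like cells. Mural-like cells were higher in each library, although the Sham_D40 mural-like value just met the Ctrl LepR-like value, and the log2 fold change was 0.80 (edgeR, adjusted p = 5.44e-05). Ndufs7 and Ndufs8, which carry iron-sulfur clusters, were higher by 0.76 each, and Ndufs3 by 0.48. Ndufs1, the largest core subunit, stood at 0.39 with an adjusted p of 0.0461 in edgeR, and lost the call in 8 of 11 alternative settings. Of the 8 complex I assembly factors 2 were higher and 1 lower (median log2 0.07), and their difference from the subunits was not tested. The lower one was Ndufaf6, which rests on 4, 3, 0 and 1 UMIs in mural-like cells.

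All 8 listed subunits of complex III were higher in mural-like cells (median log2 0.90). Uqcrc2, a core protein of the complex, had 139, 127, 124 and 169 CPM in mural-like cells of Graft_D40, Graft_D19, Sham_D40 and Ctrl, against 71.2, 67.5, 63.1 and 70.8 CPM in LepR-like cells. The classes did not overlap for this gene, and its log2 fold change was 1.0 (adjusted p = 6.05e-09 in edgeR). Uqcrfs1, the Rieske iron-sulfur protein that moves electrons inside the complex, was higher by 0.96 on the log2 scale.

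Complex V was higher as a whole, with 17 of 17 members (median log2 0.59). Atp5b, the catalytic beta subunit, had 616, 622, 556 and 467 CPM in mural-like cells of Graft_D40, Graft_D19, Sham_D40 and Ctrl, against 334, 307, 298 and 195 CPM in LepR-like cells. Mural-like cells were above LepR-like cells in every library without overlap, by 0.99 on the log2 scale (edgeR, adjusted p = 4.55e-08). Atp5a1, the alpha subunit, differed by 0.68 and Atp5c1, the gamma subunit of the central stalk, by 0.76. In complex IV, 15 of 16 members tested were higher and 1 was lower (median log2 0.83), with Cox8a at 1.06, Cox6a1 at 1.10, Cox7a2 at 0.95 and Cox5b at 0.88.

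Other mitochondrial genes gave a mixed picture in the same contrast of mural-like with LepR-like cells. All 13 protein genes of mitochondrial DNA were higher (median log2 0.80), as were cytochrome c (Cycs), the complex III gene Cyc1, and 9 of 14 genes of the tricarboxylic acid cycle (median 0.54). The median mitochondrial share of UMIs per cell was 4.41%, 4.55%, 4.87% and 5.29% in mural-like cells of Graft_D40, Graft_D19, Sham_D40 and Ctrl, against 2.02%, 2.31%, 2.97% and 2.33% in LepR-like cells. By contrast, 15 of 78 genes of the mitochondrial ribosome were higher and 2 lower (median 0.17), 1 of 16 complex IV assembly genes was higher and 1 lower, and 0 of 9 complex III and V assembly genes passed the test in either direction. Glycolysis genes were higher in 11 of 13 cases (median 0.96) and cytosolic ribosome genes in 72 of 93 (median 0.46).

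Among 9 regulators of mitochondrial genes that could be tested, 2 were higher and 1 lower in mural-like cells. Ppargc1b, a coactivator of respiratory gene expression, had 18.8, 17.8, 20.7 and 11.3 CPM in mural-like cells of Graft_D40, Graft_D19, Sham_D40 and Ctrl, against 3.69, 5.01, 5.05 and 4.25 CPM in LepR-like cells, with no overlap (log2 1.94, SE 0.37, adjusted p = 8.88e-05 in edgeR). The mural-like values rest on 23, 8, 8 and 2 UMIs. Esrra, a nuclear receptor that acts with it, was higher by 0.65. Nrf1 itself was lower, at -0.65 on the log2 scale, on 25, 6, 11 and 2 mural-like UMIs in the same order of libraries. Tfam, which packs and transcribes mitochondrial DNA, stood at -0.05 with an adjusted p of 0.898 in edgeR.

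**Figure D2:**
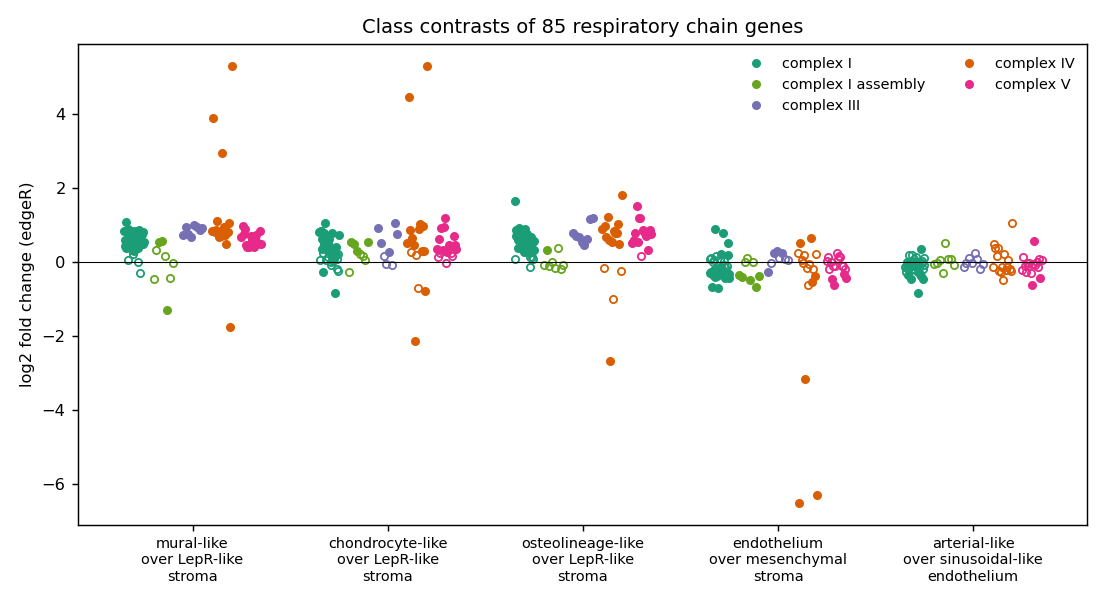
Log2 fold change (edgeR with TMM scaling, vertical axis) of the 85 members tested in 5 class contrasts (horizontal axis), coloured by complex, with filled points for adjusted p under 0.05 and open points for the rest. Mural-like cells have 74 members higher than LepR-like stroma and 2 lower. The points far from 0 are complex IV isoforms, and in the other 4 contrasts the balance of higher and lower members turned with the scaling (21 higher and 23 lower for chondrocyte-like, 14 and 25 for osteolineage-like, 25 and 12 for endothelium, 7 and 4 for arterial-like cells on plain class totals).

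The isoforms of complex IV separated classes far more than the complexes as wholes. Cox4i2 (ENSMUSG00000009876, chr2:152754173-152765037, plus strand) encodes the second isoform of subunit 4, known from lung and smooth muscle and tied to oxygen sensing. In chondrocyte-like cells it had 488, 490, 466 and 567 CPM, with the libraries in the order Graft_D40, Graft_D19, Sham_D40 and Ctrl. In mural-like cells it had 315, 475, 357 and 771 CPM in the same order, and in LepR-like cells 41.9, 26.0, 17.4 and 36.6 CPM. The first 2 classes lay above LepR-like cells in every library, with log2 fold changes of 4.48 in chondrocyte-like cells (SE 0.30, adjusted p = 1.66e-14 in edgeR) and 3.90 in mural-like cells (SE 0.30, adjusted p = 2.35e-12). Over 11 alternative settings these ranged from 4.07 to 4.73 and from 3.75 to 4.29.

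Osteolineage-like cells, at 15.2, 15.9, 16.2 and 17.9 CPM of Cox4i2, were below LepR-like cells of the same library in each of the 4 libraries, but the difference did not pass the test (log2 -0.17, adjusted p = 0.698 in edgeR with TMM). Endothelium was lowest, at 3.56 CPM in Graft_D40 and no more than 2.25 CPM in the other libraries. The widespread partner Cox4i1 (ENSMUSG00000031818), by comparison, was present in all classes, at 529, 504, 455 and 559 CPM in chondrocyte-like cells and 436, 419, 417 and 664 CPM in LepR-like cells. Cox4i2 therefore made up 48.0%, 49.3%, 50.6% and 50.4% of the UMIs of the pair in chondrocyte-like cells, a share that varied little between libraries. It was 28.4% to 39.2% in mural-like cells, 4.01% to 8.78% in LepR-like cells and 0.20% to 0.52% in endothelium.

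Ndufa4l2 (ENSMUSG00000040280, chr10:127514967-127517154, plus strand) is a paralogue of Ndufa4 and a known target of hypoxia-inducible factor. Ndufa4 (ENSMUSG00000029632, chr6:11900292-11907497, minus strand) was first assigned to complex I and later found in complex IV. Ndufa4l2 stood at 826, 1043, 1016 and 1340 CPM in mural-like cells of Graft_D40, Graft_D19, Sham_D40 and Ctrl, and at 759, 742, 1026 and 609 CPM in chondrocyte-like cells. It had 36.2, 19.6, 23.2 and 27.1 CPM in LepR-like cells. The log2 fold change over LepR-like cells was 5.31 in both classes (SE 0.39 each, adjusted p = 8.98e-13 for mural-like and 1.86e-13 for chondrocyte-like cells in edgeR), and no alternative setting brought it below 5.17 and 4.90.

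Ndufa4 ran the other way. It had 147, 147, 54.3 and 400 CPM in mural-like cells of Graft_D40, Graft_D19, Sham_D40 and Ctrl, and 178, 235, 184 and 437 CPM in chondrocyte-like cells, against 439, 477, 465 and 895 CPM in LepR-like cells. In each library it was lower than in LepR-like cells, although the Ctrl values of the first 2 classes came close to the LepR-like values of the other libraries. The log2 fold changes were -1.76 in mural-like cells (adjusted p = 3.40e-08 in edgeR) and -0.77 in chondrocyte-like cells (adjusted p = 6.87e-04), of which the second lost its call in 1 of 11 alternatives (adjusted p = 0.0989).

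Ndufa4l2 thus took 84.9%, 87.6%, 94.9% and 77.0% of the UMIs of this pair in mural-like cells, and 81.0%, 75.9%, 84.8% and 58.2% in chondrocyte-like cells. Its share was 23.7% to 66.3% in other stroma, 27.3% to 39.0% in fibroblast-like cells, 8.45% to 31.5% in osteolineage-like cells, 2.94% to 7.62% in LepR-like cells and at most 1.2% in endothelium. Per cell, after thinning to 2000 UMIs, 70.1%, 68.8%, 72.5% and 76.3% of mural-like cells held at least 1 UMI of Ndufa4l2, as did 55.3%, 49.8% and 62.6% of chondrocyte-like cells of Graft_D40, Graft_D19 and Sham_D40, and 30 of 75 such cells in Ctrl. In endothelium 1.41%, 0.879%, 1.26% and 0.197% of cells at the same depth held one, and whether this is background or low expression was not tested. Before thinning these shares were 83.7% to 95.3% in mural-like cells, 35.2% to 82.3% in chondrocyte-like cells and 0.685% to 4.42% in endothelium. The Ctrl chondrocyte-like cells were shallow, at a median of 1518 UMIs against 21299.5 to 25664 in the other libraries.

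**Figure D3:**
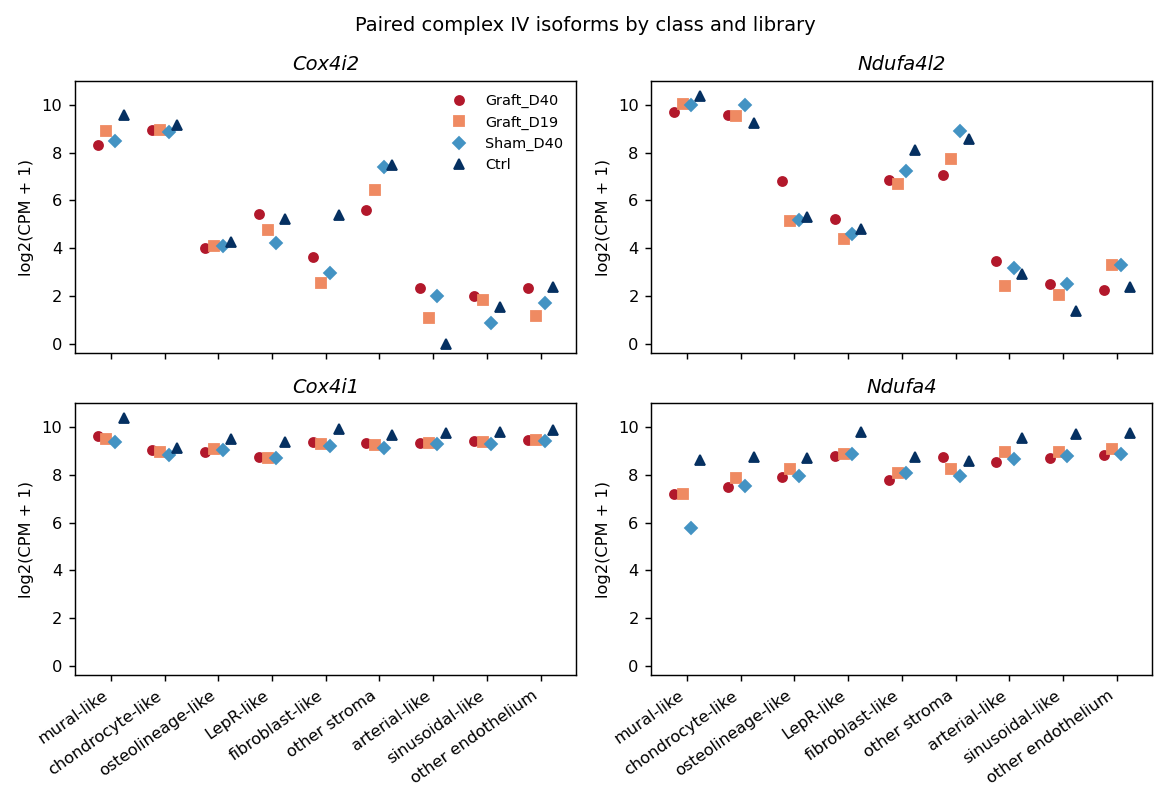
Level of the isoform pairs Cox4i2 and Cox4i1 (left) and Ndufa4l2 and Ndufa4 (right) on a log2(CPM + 1) scale (vertical axes), by class (horizontal axis) and library (symbols). Cox4i2 and Ndufa4l2 are highest in mural-like and chondrocyte-like cells in all 4 libraries and lowest in the 3 endothelial classes, at no more than 9.98 CPM there, whereas Cox4i1 spans a log2 range of 0.87 between class means and Ndufa4 has its lowest class mean (187 CPM) in mural-like cells.

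The other restricted isoforms were scarce. Cox7a1 (ENSMUSG00000074218), the heart and skeletal muscle isoform of subunit 7a, had 10.6, 13.4, 23.3 and 50.7 CPM in mural-like cells of Graft_D40, Graft_D19, Sham_D40 and Ctrl, against 1.68, 1.82, 2.48 and 4.91 CPM in LepR-like cells. It was higher in mural-like cells in every library, by 2.95 on the log2 scale (SE 0.43, adjusted p = 1.38e-06 in edgeR), but rested on 13, 6, 9 and 9 mural-like UMIs. It made up 2.29% to 5.92% of the UMIs of Cox7a1 and Cox7a2 there. Cox6b2 (ENSMUSG00000051811), known as the testis isoform of subunit 6b, had 30.3, 31.2, 41.4 and 28.2 CPM in mural-like cells and 15.4, 19.2, 21.6 and 20.3 CPM in LepR-like cells. It was lower in chondrocyte-like cells, at 2.26, 4.06, 3.54 and 3.03 CPM (log2 -2.13 from LepR-like cells, adjusted p = 4.92e-08 in edgeR), and in osteolineage-like cells, at 1.07, 1.18, 3.09 and 4.87 CPM (log2 -2.67, adjusted p = 2.99e-07). The osteolineage-like values rest on 5, 4, 8 and 3 UMIs, and the Ctrl chondrocyte-like value on 3 UMIs.

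Among chondrocyte-like cells, 52 members were higher than in LepR-like stroma and 4 lower with TMM scaling (median log2 0.34), but 21 were higher and 23 lower on plain class totals (median -0.05). Of all genes tested, 31.5% were higher and 32.7% lower with TMM, and 20.2% and 50.3% without it, when the median of all genes moved to -0.42. The median of the members lay above that of all genes (-0.02 with TMM) under both scalings. By complex, 20 of 36 subunits of complex I were higher and 2 lower with TMM, and 12 of 17 members of complex V were higher and 0 lower.

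Atp5g2, the c-ring gene whose promoter is shown above, had 422, 451, 361 and 638 CPM in chondrocyte-like cells of Graft_D40, Graft_D19, Sham_D40 and Ctrl, against 226, 220, 212 and 440 CPM in LepR-like cells. Each library showed the higher level in chondrocyte-like cells (log2 1.20, SE 0.13, adjusted p = 1.21e-09 in edgeR). Ndufa8, an accessory subunit of complex I, had 147, 142, 134 and 164 CPM against 88.3, 91.1, 79.0 and 117 CPM, without overlap (log2 1.06, adjusted p = 5.90e-11). Ndufs4, an accessory subunit of the NADH-binding part of complex I, was lower, with 54.3, 60.4, 53.8 and 82.7 CPM in chondrocyte-like cells against 134, 141, 128 and 173 CPM in LepR-like cells (log2 -0.83, adjusted p = 6.37e-07). Its classes did not overlap either. Cox7a2l, a factor that joins complexes III and IV into supercomplexes, was higher by 1.03, and Ndufa3, a membrane subunit of complex I, lower, at -0.27.

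In chondrocyte-like cells glycolysis genes moved much further than members did. All 13 of them were higher than in LepR-like cells (median log2 2.42), among them Ldha, which makes lactate, and Pgk1. Ldha had 928, 901, 982 and 1043 CPM in chondrocyte-like cells against 215, 174, 149 and 191 CPM in LepR-like cells, without overlap (log2 2.81, adjusted p = 3.83e-18 in edgeR). Of the 13 genes of mitochondrial DNA, 5 were higher and 1 lower (median 0.14), and of the 9 regulators 1 was higher and 5 lower, with Ppargc1b at -2.08 and Esrra at -0.74. The Ppargc1b value rests on 24, 17, 6 and 0 UMIs in chondrocyte-like cells of Graft_D40, Graft_D19, Sham_D40 and Ctrl. Cytosolic ribosome genes were higher in 87 of 93 cases.

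For osteolineage-like over LepR-like cells the count also turned with the scaling, at 67 higher and 1 lower with TMM (median log2 0.60) and 14 higher and 25 lower on class totals (median -0.02). Of all genes tested 23.2% were higher and 27.2% lower with TMM, against 10.4% and 61.2% without it, and the median of all genes was -0.10 with TMM and -0.76 without it. The 10 leading genes of osteolineage-like cells, such as Col1a1 and Col1a2, took 30.1% to 39.1% of their UMIs, compared with 13.7% to 16.9% in LepR-like cells, and whether this sets the difference between scalings was not tested. Ndufa1, a small membrane subunit of complex I, had 288, 369, 270 and 385 CPM in osteolineage-like cells of Graft_D40, Graft_D19, Sham_D40 and Ctrl, against 122, 144, 153 and 253 CPM in LepR-like cells. It was higher in every library without overlap (log2 1.67, adjusted p = 1.31e-11 in edgeR with TMM). Atp5e, the epsilon subunit of complex V, had 735, 935, 818 and 1133 CPM against 374, 423, 408 and 840 CPM (log2 1.53, adjusted p = 5.49e-12 with TMM), where only the Ctrl LepR-like value reached into the osteolineage-like range. Ndufa4l2 was higher by 1.82, with 111 CPM in osteolineage-like cells of Graft_D40 and 34.4 to 39.0 CPM in those of the other 3 libraries.

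Endothelium over mesenchymal stroma gave 10 members higher and 32 lower with TMM (median log2 -0.11) but 25 higher and 12 lower on class totals (median 0.05). Of all genes 28.9% were higher and 35.7% lower with TMM, and 36.1% and 29.6% without it. The isoforms again stood apart, with Cox4i2 at -6.51 (adjusted p = 2.23e-06 in edgeR), Ndufa4l2 at -6.30 (adjusted p = 1.73e-06) and Cox6b2 at -3.17 (adjusted p = 2.86e-04). Ndufa8 was higher in endothelium, at 274, 233, 188 and 267 CPM in Graft_D40, Graft_D19, Sham_D40 and Ctrl, against 123, 116, 95.7 and 126 CPM in mesenchymal stroma, with no overlap (log2 0.89, adjusted p = 1.14e-04). Ndufc2, a membrane subunit of complex I, was higher by 0.78 and Cox7a2l by 0.64. Without Sham_D40 or without Graft_D19 the contrast left 20 and 19 members past the threshold in place of 42, while 24.1% and 23.4% of all genes were higher and 29.4% lower in each.

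Within endothelium, arterial-like over sinusoidal-like cells left 2 members higher and 7 lower with TMM, where 11.9% of all genes were higher and 15.6% lower, and 7 higher and 4 lower on class totals, where the shares of all genes were 13.5% and 12.0%. Ndufc2 had 194, 189, 209 and 328 CPM in arterial-like cells of Graft_D40, Graft_D19, Sham_D40 and Ctrl, against 292, 327, 325 and 627 CPM in sinusoidal-like cells. It was lower in arterial-like cells in each library, with a log2 fold change of -0.84 (adjusted p = 1.09e-06 in edgeR). Atp5j, a subunit of the peripheral stalk of complex V, was higher in arterial-like cells, at 510, 519, 613 and 847 CPM against 362, 372, 318 and 500 CPM, with no overlap (log2 0.57, adjusted p = 5.82e-04).

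The graft comparisons have 1 library a group and no test. To count as higher or lower, a member needed a mean of 5 CPM, a difference of at least 1.5-fold and a 95% interval for counting error that left out 1. Animal, preparation and library cannot be told apart from the graft. At day 40, mesenchymal stroma showed little difference in the respiratory chain. Of 84 members measured in Graft_D40 over Sham_D40, 2 were higher and 1 lower, while 6.22% of all measured genes were higher and 11.4% lower. The median log2 ratio of the members was 0.08 against -0.12 for all genes, and 67 of the 84 were above 0, including all 8 listed subunits of complex III. Mitochondrial DNA genes stood at a median of -0.32 with 0 higher and 3 lower of 13, and cytosolic ribosome genes at 0.73 with 68 of 89 higher. With LepR-like, osteolineage-like and chondrocyte-like cells weighted equally, the median of the members was -0.0025, against -0.07 for all genes.

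The 2 higher members in mesenchymal stroma were Cox4i2 and Cox5a. Cox4i2 had 241 CPM in Graft_D40 and 140 CPM in Sham_D40, a ratio of 1.72 (1.66 to 1.77, counting error only). Chondrocyte-like cells numbered 965 of 3255 mesenchymal cells in Graft_D40, against 400 of 3169 in Sham_D40. Without them the log2 ratio of Cox4i2 was 0.0015 in place of 0.78, a value that pools LepR-like cells, where it was higher, with other stroma, where it was lower, and chondrocyte-like cells by themselves held 488 CPM in Graft_D40 and 466 CPM in Sham_D40. Cox5a, a subunit on the matrix side of complex IV, had 167 CPM in Graft_D40 and 111 CPM in Sham_D40 (ratio 1.51, 1.45 to 1.56), and its log2 ratio without chondrocyte-like cells was 0.85 in place of 0.59. Among the single classes Cox5a was called only in other stroma, which numbered 604 cells in Graft_D40 and 270 in Sham_D40. The part of that class in the pooled ratio was not tested. With Ctrl as comparator Cox5a stood at -0.03, since Ctrl mesenchymal stroma had 170 CPM. Cox6b2 was the lower member, with 6.38 CPM in Graft_D40 and 13.7 CPM in Sham_D40 (ratio 0.464, 0.404 to 0.533). LepR-like cells, where it is higher than in chondrocyte-like cells, numbered 1406 of 3255 mesenchymal cells in Graft_D40 and 2248 of 3169 in Sham_D40. Cox6b2 was not called in any single class, and the part of the class mix in its pooled ratio was not tested.

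Ndufa4l2 had 391 CPM in Graft_D40 and 319 CPM in Sham_D40 mesenchymal stroma, a ratio of 1.23, and Ndufa4 had 297 and 351 CPM. Atp5g2 had 396 CPM in Graft_D40 and 272 CPM in Sham_D40 (log2 0.54), and Atp5g1, another c-ring gene, at a log2 ratio of 0.47. At the low end were Ndufa3 (-0.22), Ndufs4 (-0.21) and Cox6c (-0.19). These fall short of the 1.5-fold mark.

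Among the 9 single classes at day 40, other stroma had the most members called, and the rest had 0 to 2 each. It also had the largest share of all genes called higher, at 12.3%. In chondrocyte-like cells 0 of 83 members were higher or lower (median log2 0.04), while 1.73% of all genes were higher and 6.64% lower. In LepR-like cells 2 of 84 were higher and 0 lower (median 0.03), with 6.62% and 4.15% of all genes called. They were Cox4i2, at 41.9 CPM in Graft_D40 and 17.4 CPM in Sham_D40 (ratio 2.41, 2.10 to 2.76), and Ndufa4l2, at 36.2 CPM in Graft_D40 and 23.2 CPM in Sham_D40 (ratio 1.56, 1.37 to 1.78). The 14 chondrocyte markers summed to 644 CPM in LepR-like cells of Graft_D40 and 328 CPM in those of Sham_D40, and their part in this difference was not tested. In mural-like cells 1 of 84 was higher and 0 lower, with 3.91% and 5.82% of all genes called. This was Ndufa4, with 180 UMIs and 147 CPM in Graft_D40 against 21 UMIs and 54.3 CPM in Sham_D40 (ratio 2.71, 1.72 to 4.49). In osteolineage-like cells, where 2.63% of all genes were higher and 14.5% lower, 1 of 82 was higher and 1 lower. Ndufa4l2 had 111 CPM in Graft_D40 and 35.5 CPM in Sham_D40 (ratio 3.14, 2.51 to 3.96), and Ndufaf5, a complex I assembly factor, had 13 UMIs in Graft_D40 and 20 in Sham_D40 (ratio 0.361, 0.165 to 0.762). In fibroblast-like cells 0 of 84 were higher or lower, with 4.57% and 3.90% of all genes called.

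Other stroma had 11 of 84 members higher and 2 lower (median log2 0.31), where 12.3% of all genes were higher and 13.3% lower. The number of higher members was thus near the share of all genes, and the number of lower ones was below it. The lower ones were Cox4i2, at 47.2 CPM in Graft_D40 and 167 CPM in Sham_D40 (ratio 0.283, 0.252 to 0.317), and Ndufa4l2, at 132 CPM in Graft_D40 and 485 CPM in Sham_D40 (ratio 0.273, 0.255 to 0.292). In LepR-like cells the same isoforms were higher. Ndufa4 was higher in other stroma, with 427 CPM in Graft_D40 and 246 CPM in Sham_D40 (ratio 1.73), as were Cox5a, with 272 CPM in Graft_D40 and 139 CPM in Sham_D40 (ratio 1.95), and 3 c-ring genes of complex V, Atp5g3 (ratio 1.85), Atp5g2 (1.69) and Atp5g1 (1.53). The remaining higher members were Cox5b, Uqcrfs1, Ndufaf6, Ndufb8, Ndufc2 and Ndufs4, at ratios of 1.52 to 2.02. The makeup of this residual class differed between the libraries, with 14 chondrocyte markers at 2522 CPM in Graft_D40 and 8270 CPM in Sham_D40, 12 fibroblast markers at 2922 and 18812 CPM, 12 osteolineage markers at 4906 and 12161 CPM, and 11 pericyte and smooth muscle markers at 954 and 277 CPM. Their part in these differences was not tested.

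In endothelium 0 of 82 members differed between Graft_D40 and Sham_D40 by this rule, where 7.55% of all genes were higher and 7.21% lower. The median log2 ratio was 0.11 against 0.03 for all genes, with 69 of 82 above 0. The largest ratios belonged to Ndufa8 (0.54), Atp5g1 (0.39), Cox5a (0.39) and Cox5b (0.34), and the smallest to Atp5g3 (-0.31), Ndufc2 (-0.25), Ndufa3 (-0.16) and Ndufaf4 (-0.13). None of these reached 1.5-fold. By class, Ndufa8 was the 1 higher of 81 members in sinusoidal-like cells (ratio 1.51, with 7.22% of all genes higher and 6.25% lower), and 0 of 82 were called in arterial-like cells (4.75% and 4.20% of all genes). In the remaining endothelium Ndufa10, an accessory subunit of complex I, was higher (ratio 1.52) and Ndufa4l2 lower on 15 UMIs in Graft_D40 and 12 in Sham_D40, where 7.34% of all genes were higher and 6.61% lower.

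**Figure D4:**
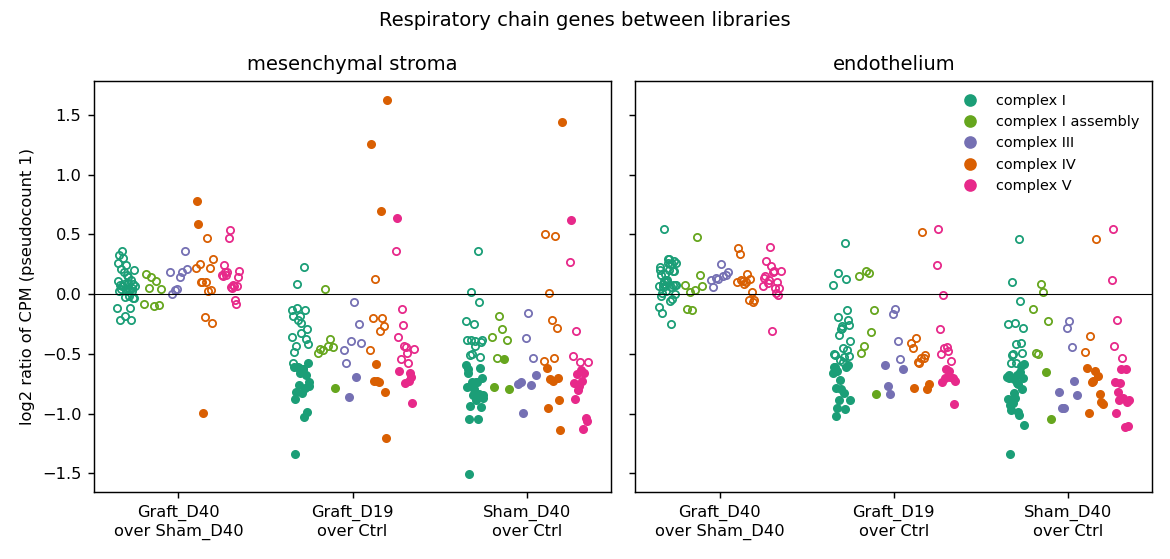
Log2 ratio of CPM (pseudocount 1, vertical axis) of each measured member between libraries in mesenchymal stroma (left) and endothelium (right), coloured by complex, with filled points for members called higher or lower at 1.5-fold and open points for the rest. Graft_D40 over Sham_D40 lies near 0 in both compartments, and Graft_D19 over Ctrl and Sham_D40 over Ctrl, which share Ctrl, lie mostly below 0.

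At day 19 the comparator was Ctrl, the shallow library. In mesenchymal stroma 4 of 84 members were higher and 34 lower in Graft_D19 than in Ctrl, where 18.2% of all genes were higher and 13.9% lower, and the median log2 ratio was -0.47 against 0.07 for all genes. In endothelium 0 of 81 were higher and 31 lower, where 18.9% of all genes were higher and 7.71% lower, with medians of -0.52 and 0.18. The ungrafted Sham_D40 over the same Ctrl had 2 members higher and 48 lower in mesenchymal stroma (medians -0.65 for members and 0.19 for all genes; 23.4% and 10.5% of all genes called), and 0 higher and 51 lower in endothelium (medians -0.68 and 0.20; 20.3% and 8.80% called). These comparisons share Ctrl. With Sham_D40 as the comparator, Graft_D19 left 1 member higher and 0 lower in mesenchymal stroma, and 0 in endothelium. That comparison called 4.09% of all genes higher and 7.90% lower in mesenchymal stroma, and 3.37% and 4.41% in endothelium.

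The member furthest below Ctrl was Ndufa3, with 177 CPM in Graft_D19 and 449 CPM in Ctrl mesenchymal stroma (log2 -1.34). Sham_D40 had 158 CPM, so that both libraries lay far under Ctrl. Ndufa4 had 335 CPM in Graft_D19 and 773 CPM in Ctrl (log2 -1.20), Ndufc2 had 148 and 304 CPM (-1.03), and Ndufs7 had 102 and 203 CPM (-0.99). In endothelium Ndufa3 was again the lowest, at 217 CPM in Graft_D19 and 443 CPM in Ctrl (-1.02).

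Higher in Graft_D19 mesenchymal stroma than in Ctrl were Ndufa4l2, at 362 CPM in Graft_D19 and 117 CPM in Ctrl (ratio 3.11, 2.93 to 3.30), and Cox4i2, at 237 CPM in Graft_D19 and 98.6 CPM in Ctrl (ratio 2.41). Chondrocyte-like cells, where both are high, numbered 751 of 3315 mesenchymal cells in Graft_D19 against 213 of 2441 in Ctrl. With 3 stromal classes weighted equally the log2 ratios were -0.11 for Ndufa4l2 and -0.28 for Cox4i2, and without chondrocyte-like cells -0.16 and -0.50. Atp5b had 297 CPM in Graft_D19 and 190 CPM in Ctrl (ratio 1.56), and Cox7a2l had 160 CPM in Graft_D19 and 98.4 CPM in Ctrl (ratio 1.63). Without chondrocyte-like cells the log2 ratio was 0.69 for Atp5b and 0.43 for Cox7a2l, of which the second falls under the 1.5-fold mark. In endothelium they stood at 0.55 and 0.52.

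Members are short, and library differences from Ctrl ran with transcript length. The longest annotated transcript of a member had a median of 861 bases (360 to 4715), against 3180 bases for measured genes, and 53 of the 89 members were at most 1000 bases long, against 5.65% of measured genes. In mesenchymal stroma of Graft_D19 over Ctrl, other genes of 500 to 1000 bases had a median log2 ratio of -0.42 and those over 4000 bases one of 0.27, while members of 500 to 1000 bases stood at -0.58. Sham_D40 over Ctrl showed the same order, at -0.54 and 0.48 for other genes and -0.73 for members. For Graft_D40 over Sham_D40 the order was the other way round, at 0.15 and -0.22 for other genes and 0.08 for members. The part of length in the members' differences was not tested further, and depth, library and length cannot be told apart with 1 library a group.

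**Figure D5:**
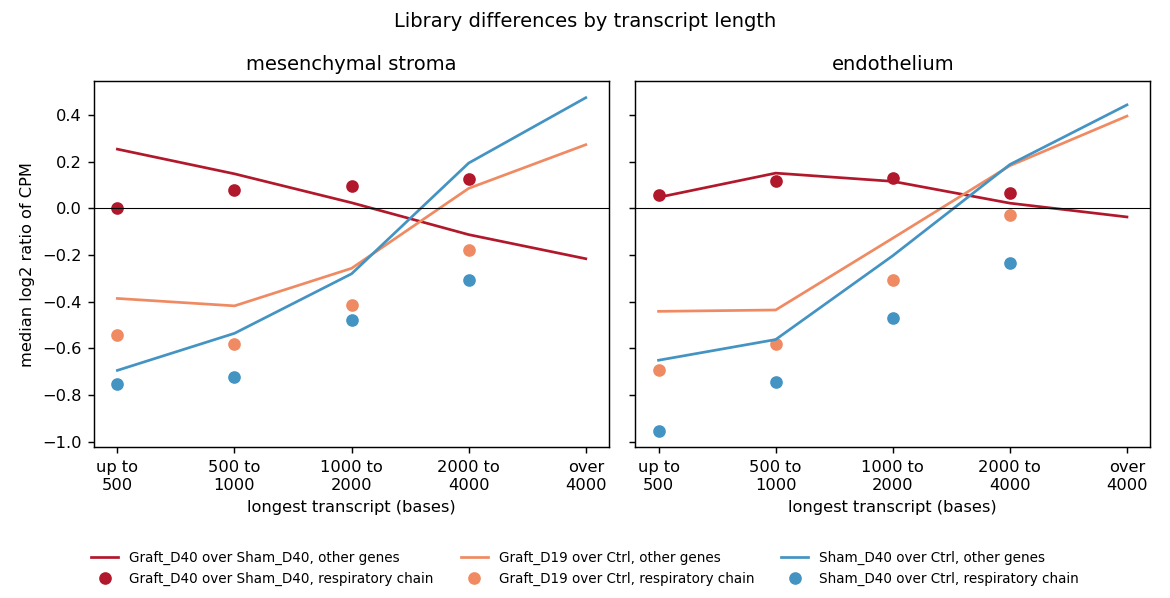
Median log2 ratio of CPM (vertical axis) by length of the longest transcript in bases (horizontal axis) for respiratory chain members (points, shown up to 4000 bases, since 2 members are longer) and all other measured genes (lines), in mesenchymal stroma (left) and endothelium (right). In both comparisons with Ctrl, other genes of 500 to 1000 bases lie below 0 (-0.42 for Graft_D19 and -0.54 for Sham_D40 in mesenchymal stroma) and genes over 4000 bases lie above it. Members lie below other genes of their length in every bin shown for the comparisons with Ctrl. For Graft_D40 over Sham_D40 they lie below other genes in some bins and above them in others. With ribosomal protein genes left out, the 5 members up to 500 bases lie above other genes in mesenchymal stroma of Sham_D40 over Ctrl (-0.75 against -0.78).

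Many respiratory chain genes have processed pseudogenes in the mouse genome, and the sources used here do not say how reads that match both were counted. Their part in the levels and in the class differences was not tested.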

How the data were processed

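RNA of sorted cells was counted by 10x 3′ v3.1 chemistry, per the labels' protocols, in 4 libraries of 1 group each. The authors deposited unnormalised UMI counts for every gene in each barcode, made by Cell Ranger 5.0.0 per the file headers and by Cell Ranger 3.1.0 on mm10 per the submitters' processing notes. Antibody features of Sham_D40 and Graft_D40 (2 each) were left out. Libraries shared 11 to 15 barcodes.

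Cells had at least 500 genes, 1000 UMIs and at most 10% mitochondrial UMIs, and were classed by marker sums per 10000 UMIs, with thresholds set after marker values were seen. No doublet caller was run. Cells that passed no gate (264, 182, 67 and 132 in Graft_D40, Graft_D19, Sham_D40 and Ctrl) were left out. These had markers of both compartments or too few of either. Cells with blood markers (30, 55, 50 and 61) were also left out. GENCODE vM21 gave positions for all 89 members and 32158 of 32285 genes (99.6%), and RefSeq GRCm38.p6 gave promoters.

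CPM came from UMIs summed per class and library. For log2 ratios 1 CPM was added to both sides. Intervals of ratios (95%, exact binomial given the summed UMIs) cover counting error only, as do all others. Class contrasts used edgeR 4.0.16 (quasi-likelihood, filterByExpr, TMM, library block, Benjamini-Hochberg, threshold 0.05) in R 4.3.3, with DESeq2 1.42.0 as an alternative. Sums and ratios used pandas 2.3.3, numpy 2.4.6 and scipy 1.17.1 in Python 3.11.15. The calculations were tested on simulated data.

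Members and lists were chosen with earlier results of these data known, and support nothing by themselves. Named were the complex IV isoforms, core subunits, the 4 highest and 4 lowest members of a comparison at 20 CPM or more, and the 4 highest and lowest that passed in a class contrast. Ldha, Pgk1 and the regulators come from the companion lists, and members named in single classes, for their evenness or as examples of a complex were chosen after their values were seen. The mural-like contrast, Sham_D40 over Ctrl, plain class totals and pooled stroma without chondrocyte-like cells were added after levels were seen.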

Additional observations from a re-analysis of the deposited data

How the results depend on the processing

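Values of single members were recomputed under alternatives, 915 in all. Of these, 825 kept their call or the lack of one, 49 lost the call, 29 gained one and 12 changed sign. Direction was compared only for members called in the reported setting. Of 107 recomputed counts, 79 stayed within 1.5 times. Counts are given as a total with members higher and lower, and the percentages after them are all genes higher and lower in the same setting. The lower fold asked for a difference of 25% or more in place of 50%. For Graft_D40 over Sham_D40 the mesenchymal count was 9 (8 and 1; 13.1% and 27.5%) at the lower fold and 40 (4 and 36; 19.8% and 16.7%) with Ctrl as comparator. In endothelium it was 1 (1 and 0, 6.56% and 6.91%) without a minimum level and 1 (1 and 0, 6.22% and 6.16%) with thinned cells. It was 5 (5 and 0, 16.3% and 13.9%) at the lower fold and 38 (2 and 36, 23.9% and 11.2%) with Ctrl. For Graft_D19 over Ctrl the mesenchymal count was 64 (5 and 59; 32.6% and 24.9%) at the lower fold, 1 (1 and 0) with Sham_D40 as comparator and 22 (1 and 21; 12.9% and 7.27%) with classes weighted equally. In endothelium it was 53 (0 and 53; 10.6% and 13.1%) with median-of-ratios scaling, 61 (3 and 58; 35.8% and 15.4%) at the lower fold and 0 with Sham_D40.

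Class contrasts moved with the scaling. On class totals without TMM, the count was 37 (25 and 12) for endothelium over mesenchymal stroma, 39 (14 and 25) for osteolineage-like, 44 (21 and 23) for chondrocyte-like and 11 (7 and 4) for arterial-like cells. Arterial-like cells gave 12 (7 and 5; 14.2% and 13.1%) in DESeq2 and 11 (6 and 5; 13.4% and 13%) with its size factors. Without the block for library the counts were 7 for endothelium (22.3% and 27.9%), 37 for osteolineage-like (18.2% and 22.7%), 25 for chondrocyte-like (26.1% and 27.5%), 0 for arterial-like (9.57% and 10.6%) and 36 for mural-like cells (13.9% and 16%), and with thinned cells 44 for osteolineage-like cells (15.0% and 17.2%). In that arterial-like fit edgeR gave 5 members an unadjusted p under 0.05. Leaving out 1 library gave 19 to 37 for endothelium (23.4% to 27.3% of all genes higher, 29.4% to 34.3% lower). It gave 59 to 68 for osteolineage-like cells (18.6% to 23.0% higher, 21.1% to 27.4% lower). For chondrocyte-like cells it gave 43 to 58 (26.65% to 31.5% higher, 27.5% to 31.9% lower). For mural-like cells it gave 68 to 73 (14.9% to 16.7% higher, 14.7% to 18.5% lower). For arterial-like cells it gave 5 to 7, with 5 without Sham_D40 (8.62% and 10.2%) and 5 without Graft_D19 (10.1% and 12.0%).

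Sign changes of called members came from the other comparator, at -0.029 for Cox5a at day 40, 0.17 and 0.015 for Ndufa3 and Ndufc2 in mesenchymal stroma at day 19, and 0.32, 0.047, 0.022, 0.18 and 0.17 for Ndufa3, Ndufc2, Ndufa7, Atp5mpl and Ndufa4 in endothelium. Others came from the mix of classes, at -0.11 and -0.28 for Ndufa4l2 and Cox4i2 with equal weights, and -0.16 and -0.50 without chondrocyte-like cells. No paired analysis was possible because each group is 1 library and the replicate numbers are only names. No library could be left out of a graft comparison for the same reason.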
